A study of Saccharomyces cerevisiae with 5 samples.

Results

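The comparison described here sets the transcript start sites of 1 yeast strain, BY_DEH++, grown on DEH against those of the same strain grown on glucose. A gene's level was the sum of the CPM (tags scaled to a common library total) of all start-site clusters that the authors assigned to it. The 4829 genes with 10 CPM or more in either library were kept, of 5009 genes in the deposited table, and the 180 others were below that level in both. A fold is log2 of (CPM + 1) in DEH over (CPM + 1) in glucose, so a positive value means higher in DEH. Each medium has 1 library, so no difference below has a replicate check, and "higher" or "lower" counts use a fixed limit of 4-fold for single genes and 2-fold inside gene groups. The intervals on ratios are exact 95% intervals from the numbers of reads and cover counting error only.

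DEH, 4-deoxy-L-erythro-5-hexoseulose uronate, is the monomer released when alginate, a polysaccharide of brown algae, is broken down, and ordinary baker's yeast cannot grow on it. Cap analysis of gene expression (CAGE) was applied to total RNA of 5 Saccharomyces cerevisiae cultures. The labels give the strains by name only, BY_DEH++ and BY_DEH+, with no genotype. All cultures were started from solid YPGA plates and shaken in 10 mL of HC-LN-based liquid medium at 30 °C with 1% (w/v) of the carbon source. BY_DEH++ in DEH began at an OD600 of 0.05 and was taken after 2 days at 0.55, while BY_DEH++ in glucose began at 0.05 and was taken after an overnight culture at 0.95. BY_DEH+ in DEH began at 0.2 and was taken after 3 days at 0.63, BY_DEH+ in glucose ran from 0.05 to 0.91 overnight, and BY_DEH++ in mannitol ran from 0.02 to 0.79 in 1 day. The carbon source and the length and density of the culture therefore differ together between DEH and glucose, and their parts cannot be told apart. A CPM is a share of each library, so more RNA per cell and more cells using a gene cannot be told apart either.

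Yeast given a non-fermentable or poorly fermented carbon source derepresses genes that glucose keeps silent. The Snf1 kinase acts through the activators Cat8, Sip4 and Adr1, which turn on the glyoxylate cycle, gluconeogenesis, ethanol and acetate use and fatty acid oxidation, and the Hap complex turns on respiration. Hexose transporters of low affinity and the repressors Mig1, Mig2 and Mig3 depend on glucose signalling. Ribosomal protein and ribosome assembly genes follow growth and nutrient signals, and the iron regulon follows the activators Aft1 and Aft2.

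The DEH library held 19.9 M tags and the glucose library 13.3 M tags, as found from the CPM step of 1 read. A level of 10 CPM stood for 199 reads in DEH (interval 8.66 to 11.5 CPM) and 133 reads in glucose (8.39 to 11.9 CPM). The lowest listed value was 0.50 CPM (10 reads) in DEH and 0.53 CPM (7 reads) in glucose, and anything below is listed at 0. The median fold over all 4829 genes was -0.11, and 80.7% of the genes lay within 2-fold. Genes of both mating types had tags in both media: STE2, which binds alpha factor, had 9.45 CPM in DEH and 106 CPM in glucose, and STE3, which binds a factor, had 101 CPM in DEH and 231 CPM in glucose. The labels give no mating type.

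In DEH 155 genes were at least 4-fold higher, which is 3.21% of the genes measured, and 104 were at least 4-fold lower, which is 2.15%. Of the 155 higher genes 84 encode proteins of the cytosolic ribosome and 71 do not. The higher and lower genes differed in the level of their weaker library. Of the 155 higher genes 14 were under 10 CPM in glucose, and 1 of these was listed at 0 there. Of the 104 lower genes 47 were under 10 CPM in DEH, and 7 of these were listed at 0 there. Just inside the 4-fold limit were NSR1 at 2.03 and RPS27B at 2.07 on the higher side and STP4 at -2.03 and YPS6, with 8.65 CPM in DEH and 37.7 CPM in glucose, on the lower side, and just outside were RPL16B at 2.00, RPL2A at 1.98, ENO1 at -1.99 and SPS22 at -1.99. At the 2-fold limit used for groups, 421 genes (8.72%) were higher and 511 (10.6%) lower, and these are the shares to hold each group against.

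**Figure D1:**
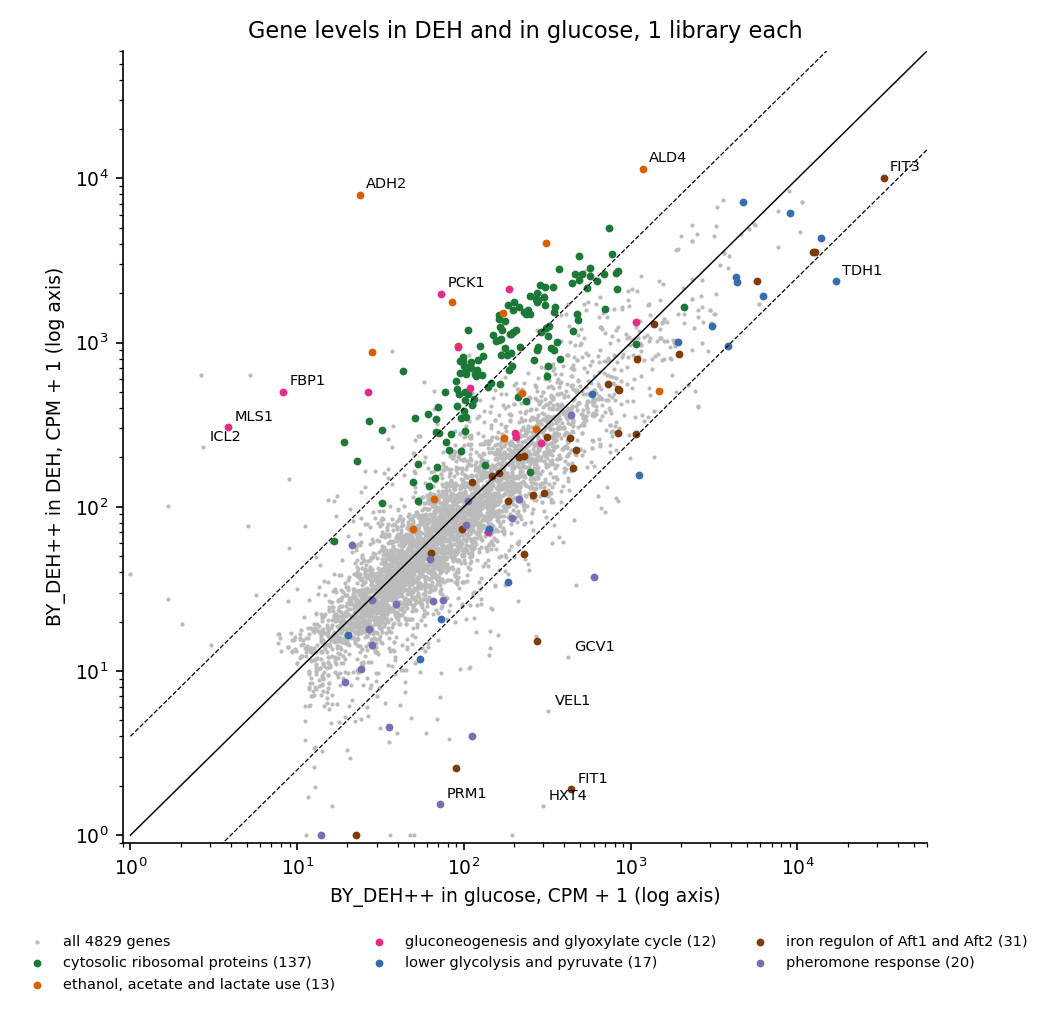
Level of each of the 4829 genes in BY_DEH++ in DEH (vertical axis) against BY_DEH++ in glucose (horizontal axis), as CPM + 1 on log axes, 1 library each. The solid line marks equal levels and the broken lines 4-fold. Of the 137 ribosomal protein genes 131 lie at least 2-fold above the solid line and RPL4A, RPL15B and RPS29A below it. ADH2, ALD4 and 7 of the 12 gluconeogenesis and glyoxylate cycle genes lie above the upper broken line. FIT1, HXT4, VEL1 and PRM1 lie at the bottom.

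The highest group median belonged to the enzymes that take up and oxidise ethanol and acetate. Of 13 genes in this group, 8 were at least 2-fold higher in DEH and 1 was lower, with a median fold of 3.15, and the group took 3.16% of all CPM in DEH (3.15 to 3.17) against 0.433% in glucose (0.429 to 0.436). ADH2, the alcohol dehydrogenase that oxidises ethanol, had 7979 CPM in DEH and 22.8 CPM in glucose, a ratio of 351 (313 to 394). ALD4, the mitochondrial acetaldehyde dehydrogenase, had 11501 CPM in DEH and 1177 CPM in glucose and made the largest gain in CPM of all genes. ALD6, the cytosolic acetaldehyde dehydrogenase, had 4062 CPM in DEH and 310.0 CPM in glucose. The next step, activation of acetate to acetyl-CoA, split by isoenzyme. ACS1 had 958 CPM in DEH and 91.7 CPM in glucose, and ACS2 had 295 CPM in DEH and 271 CPM in glucose, although the ACS2 tags come from clusters that are also assigned to another gene. The transporters of this group were also high: ADY2, an acetate permease, had 875 CPM in DEH and 27.0 CPM in glucose, a ratio of 32.4 (29.2 to 36.0). ATO3, a related plasma membrane protein linked to ammonium export, had 1761 CPM in DEH and 84.4 CPM in glucose, and JEN1, the lactate and pyruvate permease, had 1524 CPM in DEH and 171 CPM in glucose. The member that went the other way was DLD3, which converts 2-hydroxyglutarate and D-lactate, with 504 CPM in DEH and 1479 CPM in glucose.

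The promoter of ADH2 is shown because its activation by Adr1 is a textbook example. It lies at chrXIII:874441-874690 on the minus strand of the R64 genome, ends 1 base before the start cluster, and capitals mark GGAGA on either strand, the Adr1 core, and TATAAA, the TATA box.
ADH2: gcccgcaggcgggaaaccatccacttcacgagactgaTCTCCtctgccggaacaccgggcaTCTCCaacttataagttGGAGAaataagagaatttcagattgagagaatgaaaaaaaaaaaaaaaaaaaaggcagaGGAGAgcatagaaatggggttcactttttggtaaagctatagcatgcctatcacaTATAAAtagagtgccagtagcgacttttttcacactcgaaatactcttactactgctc
The 4 Adr1 cores begin 213, 189, 172 and 113 bases upstream of the cluster and the TATA box 58 bases upstream. GGAGA is short and common: it was found in 36.0% of all 4468 promoters (300 bases, 280 of them upstream of the main cluster's edge, either strand), in 55.7% of the 61 promoters of higher genes outside the ribosome, in 59.8% of the 82 promoters of higher ribosomal protein genes and in 34.3% of the 102 promoters of lower genes.

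Gluconeogenesis and the glyoxylate cycle, which together turn acetyl units back into sugar, were higher as well. Of 12 genes 7 were at least 2-fold higher, all 7 of them past 4-fold, and none was 2-fold lower, with a median of 2.83. MLS1, malate synthase, had 304 CPM in DEH and 2.86 CPM in glucose, a ratio of 106 (77.3 to 150). FBP1, fructose-1,6-bisphosphatase, had 502 CPM in DEH and 7.24 CPM in glucose, a ratio of 69.3 (56.8 to 85.7). PCK1, which makes phosphoenolpyruvate from oxaloacetate, had 1989 CPM in DEH and 72.0 CPM in glucose, a ratio of 27.6 (25.9 to 29.5). MLS1 belongs to the glyoxylate cycle and the other two to the synthesis of sugar. MDH2, the cytosolic malate dehydrogenase, had 2124 CPM in DEH and 184 CPM in glucose, and ICL1, isocitrate lyase, had 943 CPM in DEH and 91.0 CPM in glucose. IDP2, a cytosolic source of NADPH, had 502 CPM in DEH and 25.5 CPM in glucose. The members within 2-fold included CIT2, the peroxisomal citrate synthase under retrograde control, which had 1335 CPM in DEH and 1079.7 CPM in glucose, and VID24 and GID8, parts of the complex that degrades FBP1 when glucose returns, had folds of -0.26 and -0.99.

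The MDH2 promoter is shown because it held 4 matches to the element bound by Cat8 and Sip4, searched on both strands as CC and CCG with 6 free bases between. It lies at chrXV:83122-83371 on the minus strand of R64, and capitals mark the matches, which begin 250, 232, 199 and 176 bases upstream of the cluster.
MDH2: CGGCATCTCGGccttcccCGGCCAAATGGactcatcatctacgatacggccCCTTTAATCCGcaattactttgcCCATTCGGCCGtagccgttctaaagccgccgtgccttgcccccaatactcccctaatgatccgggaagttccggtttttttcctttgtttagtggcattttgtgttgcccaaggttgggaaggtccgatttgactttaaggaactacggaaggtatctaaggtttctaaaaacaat
This element was found in 44.3% of the promoters of higher genes outside the ribosome, in 26.8% of those of higher ribosomal protein genes, in 14.7% of those of lower genes and in 16.2% of all promoters. A match is a description of the letters only.

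In the 2-methylcitrate cycle, which disposes of propionyl-CoA, 3 of 4 measured genes were at least 2-fold higher and 1 was within 2-fold. ICL2, its mitochondrial 2-methylisocitrate lyase, had 230 CPM in DEH and 1.73 CPM in glucose, a ratio of 133 (88.2 to 209). CIT3, the 2-methylcitrate synthase of mitochondria, had 230 CPM in DEH and 36.0 CPM in glucose. PDH1, 2-methylcitrate dehydratase, had 421 CPM in DEH and 116 CPM in glucose.

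Peroxisomal beta-oxidation of fatty acids was higher in 11 of 20 genes and lower in 1, with a median of 1.24. CTA1, the peroxisomal catalase, had 101 CPM in DEH and 0.68 CPM in glucose, a ratio of 148 (78.2 to 326) that rests on few glucose reads. FOX2, the multifunctional enzyme of the second and the third step, had 147 CPM in DEH and 7.99 CPM in glucose. POT1, the thiolase that ends each round, had 55.4 CPM in DEH and 7.99 CPM in glucose, and POX1, the oxidase that begins it, had 74.1 CPM in DEH and 26.2 CPM in glucose. The importer of activated fatty acids was uneven, since its subunit PXA1 had 107 CPM in DEH and 15.5 CPM in glucose and its partner PXA2 had 19.6 CPM in DEH and 31.3 CPM in glucose. FAA1, the main acyl-CoA synthetase for imported long-chain fatty acids, was the member 2-fold lower, with 123 CPM in DEH and 320 CPM in glucose. Within the carnitine shuttle, which carries acetyl units into mitochondria, CAT2 alone of 6 genes passed 2-fold, with 60.1 CPM in DEH and 15.1 CPM in glucose.

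FOX2 is shown for its match to the oleate response element of Oaf1 and Pip2, searched on both strands as CGG and CCG with 15 free bases between. The sequence is chrXI:457225-457474 on the minus strand of R64, and the capitals, which begin 101 bases upstream of the cluster, mark the match.
FOX2: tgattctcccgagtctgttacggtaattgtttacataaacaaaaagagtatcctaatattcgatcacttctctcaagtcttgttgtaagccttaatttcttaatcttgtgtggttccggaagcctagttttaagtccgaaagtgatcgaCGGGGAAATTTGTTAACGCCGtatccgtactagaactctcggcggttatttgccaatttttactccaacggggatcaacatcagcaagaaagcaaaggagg
The element was found in 8.20% of the promoters of higher genes outside the ribosome, 5 of 61, in 3.66% of those of higher ribosomal protein genes and in 3.92% of those of lower genes, against 1.68% of all promoters, 75 of 4468.

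**Figure D2:**
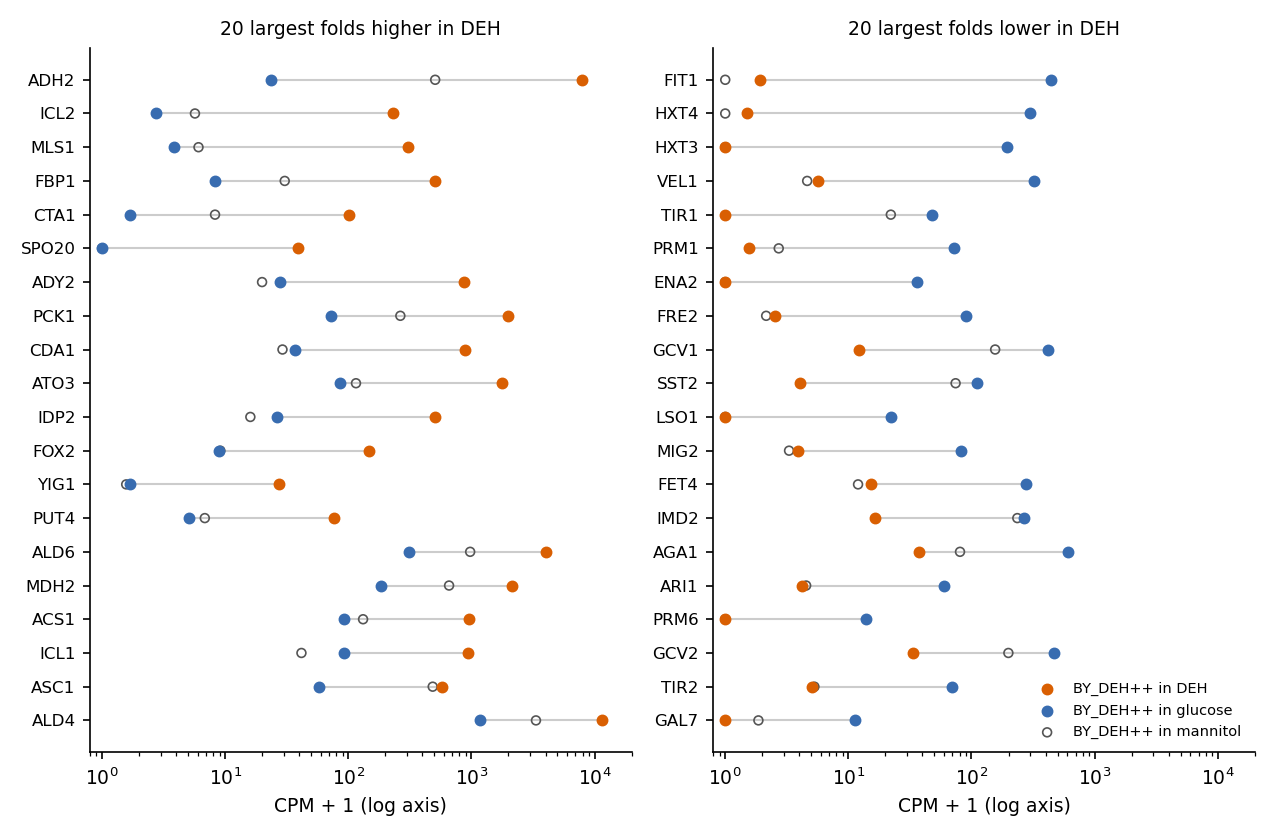
Levels of the 20 genes outside the ribosome with the largest folds in each direction, as CPM + 1 on a log axis, with BY_DEH++ in DEH in orange, in glucose in blue and in mannitol as open circles, 1 library each. On the left ADH2 reached 7979 CPM in DEH against 22.8 CPM in glucose, and on the right FIT1 had 0.91 CPM in DEH against 438 CPM in glucose. HXT3, TIR1, ENA2, LSO1, PRM6 and GAL7 stand at the left edge in DEH, where they were listed at 0.

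Mitochondrial respiration was higher by less per gene but across many genes. In the respiratory chain 16 of 24 genes were at least 2-fold higher and 2 lower, with a median of 1.12, and in the ATP synthase 7 of 17 were higher and none lower, with a median of 0.92. In the tricarboxylic acid cycle 7 of 15 were higher and none lower, with a median of 0.69. CYC1, the main cytochrome c, had 80.8 CPM in DEH and 20.7 CPM in glucose, and COX7, a subunit of cytochrome c oxidase, had 164 CPM in DEH and 49.2 CPM in glucose. SDH2, the iron-sulfur subunit of succinate dehydrogenase, had 426 CPM in DEH and 111 CPM in glucose, and SDH1, its flavoprotein subunit, had 516 CPM in DEH and 153 CPM in glucose. The 2 lower members of the chain were the low-oxygen isoforms CYC7, with 2.26 CPM in DEH and 13.0 CPM in glucose, and COX5B, with 48.3 CPM in DEH and 108 CPM in glucose. The CCAAT motif of the Hap complex stood in 86.4% of the promoters of the respiratory list (19 of 22), against 43.2% of all promoters, 70.5% of those of higher genes outside the ribosome and 46.1% of those of lower genes. Proteins of the mitochondrial ribosome moved little: 2 of 69 were 2-fold higher and 1 lower, with a median of 0.16, and the highest of these, MRP13, takes its tags from clusters shared with the cytosolic ribosomal gene RPL11B.

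Carriers of the mitochondrial inner membrane went both ways, 4 of 19 higher and 4 lower. ODC1, an oxodicarboxylate carrier, had 319 CPM in DEH and 67.9 CPM in glucose, while its paralog ODC2 had 163 CPM in DEH and 399 CPM in glucose. MIR1, the main phosphate carrier, had 1587 CPM in DEH and 540 CPM in glucose, while PIC2, a second carrier of phosphate and copper, had 16.5 CPM in DEH and 142 CPM in glucose.

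The second large block of higher genes was the cytosolic ribosome. Of its 137 genes 131 passed 2-fold higher, 84 of these past 4-fold, and none was 2-fold lower, with a median of 2.32. Together they took 15.7% of all CPM in DEH, 3.54% in glucose and 26.8% in mannitol. RPL9A, a protein of the large subunit, had the highest fold, with 673 CPM in DEH and 42.0 CPM in glucose, a ratio of 16.0 (14.7 to 17.5). The 6 that stayed under 2-fold were named after their values were seen. RPL4A had 1646 CPM in DEH and 2086 CPM in glucose (fold -0.34), RPL15B had 979 CPM in DEH and 1072 CPM in glucose (-0.13, but 0.21 with shared clusters left out), and RPS29A had 163 CPM in DEH and 247 CPM in glucose (-0.60, but 1.29 with clusters assigned to the nearest coding start). The others were RPL41A at 0.44, RPL41B at 0.91 and RPP2A at 0.99. RPL4B, the paralog of RPL4A, had 799 CPM in DEH and 374 CPM in glucose, a fold of 1.09. Reads of near-identical ribosomal paralogs can be split between copies in ways not given in the sources used here.

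ASC1, which encodes the ribosome-bound protein also known as RACK1 outside yeast and is not on the ribosomal list, had 576 CPM in DEH and 56.7 CPM in glucose, a ratio of 10.2 (9.43 to 10.9). Ribosome assembly factors were 2-fold higher in 37 of 78 genes and lower in none, with a median of 0.95. NSR1, the yeast nucleolin, had 1714 CPM in DEH and 418 CPM in glucose, and DBP3, an RNA helicase, had 154 CPM in DEH and 42.6 CPM in glucose. NOP12, with 1812 CPM in DEH and 278 CPM in glucose, shares its clusters with the ribosomal gene RPS15. RNA polymerases I and III were 2-fold higher in 5 of 22 genes, among them RPA34, with 279 CPM in DEH and 94.3 CPM in glucose, and translation factors in 6 of 37, among them YEF3, elongation factor 3, with 6703 CPM in DEH and 3301 CPM in glucose. ANB1, the low-oxygen form of eIF5A, was the translation factor past 2-fold lower, with 2.41 CPM in DEH and 11.6 CPM in glucose.

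The NSR1 promoter carries both elements of the assembly genes close to its start cluster. It is chrVII:807803-808052 on the minus strand of R64, and capitals mark GATGAG on either strand, the PAC element, and AAAATTT on either strand, the RRPE.
NSR1: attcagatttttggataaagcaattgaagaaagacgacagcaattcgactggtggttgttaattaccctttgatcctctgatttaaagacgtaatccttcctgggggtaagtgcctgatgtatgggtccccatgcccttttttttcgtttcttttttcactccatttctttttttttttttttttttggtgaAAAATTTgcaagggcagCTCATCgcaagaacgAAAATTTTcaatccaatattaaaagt
The PAC element begins 41 bases upstream of the cluster and the RRPE 58, 26 and 25 bases upstream, the last 2 overlapping on opposite strands. PAC was found in 87.7% and RRPE in 93.2% of the 73 promoters of the assembly list, against 21.0% and 27.5% of all promoters. In the 82 promoters of the ribosomal protein genes past 4-fold, PAC was found in 18.3%.

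Among the lower genes, transporters and enzymes of glucose use stood out. Of 13 measured hexose transporters and sensors 7 were at least 2-fold lower and 1 higher, with a median of -1.66. HXT4, a transporter that low glucose induces, had 0.50 CPM in DEH and 296 CPM in glucose, so that the glucose-to-DEH ratio was 592 (320 to 1229). This DEH level is the lowest value listed in that library, 10 reads, so the size of the ratio is uncertain. HXT3, a low-affinity transporter, was listed at 0 in DEH and had 195 CPM in glucose. HXT2, which is active at moderate glucose, had 1043 CPM in DEH and 1011 CPM in glucose, and HXT5, which slow growth induces, had 169 CPM in DEH and 79.1 CPM in glucose and was the member past 2-fold higher. HXT6 and HXT7, the high-affinity pair, are nearly identical, so their own values of 47.1 and 236 CPM in DEH and 232 and 751 CPM in glucose are uncertain between the copies.

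In the lower part of glycolysis and the pyruvate branch 9 of 17 genes were at least 2-fold lower and none higher, with a median of -1.28, and the group took 3.22% of CPM in DEH against 7.36% in glucose. TDH1, a glyceraldehyde-3-phosphate dehydrogenase, had 2358 CPM in DEH and 17024 CPM in glucose, a glucose-to-DEH ratio of 7.22 (7.15 to 7.29). PGK1, phosphoglycerate kinase, had 4337 CPM in DEH and 13826 CPM in glucose. ADH1, the fermentative alcohol dehydrogenase, did not follow them, with 7215 CPM in DEH and 4703 CPM in glucose. Within the upper part, shared in part with sugar synthesis, 4 of 11 were lower, among them HXK1, a hexokinase, with 499 CPM in DEH and 1871 CPM in glucose, while FBA1, the aldolase that works in both directions, had 4947 CPM in DEH and 5148 CPM in glucose.

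Of 21 regulators of glucose repression 2 were at least 2-fold higher, 5 were lower and 14 were within 2-fold. MIG2, a repressor induced by glucose, had 2.87 CPM in DEH and 80.7 CPM in glucose, a glucose-to-DEH ratio of 28.1 (21.6 to 37.4). MIG3 had 4.32 CPM in DEH and 25.5 CPM in glucose, and MIG1, the main repressor, had 85.3 CPM in DEH and 203 CPM in glucose. MTH1, a co-repressor of the hexose transporter genes, had 40.0 CPM in DEH and 243 CPM in glucose, and its paralog STD1 had 2.31 CPM in DEH and 18.9 CPM in glucose. SIP4, the activator of gluconeogenic genes, had 75.1 CPM in DEH and 10.2 CPM in glucose, while CAT8, which activates SIP4, had 51.9 CPM in DEH and 36.2 CPM in glucose. HAP4, the activating subunit of the Hap complex, had 68.5 CPM in DEH and 120 CPM in glucose, a fold of -0.80 that runs opposite in sign to the median of the respiratory genes.

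The iron regulon was lower in 16 of 31 genes and higher in none, with a median of -1.09, and took 2.44% of CPM in DEH against 6.74% in glucose. In mannitol the list took 0.546% of CPM, and its median fold over the same glucose library was -3.23. FIT1, a cell wall mannoprotein that retains siderophore iron, had the lowest fold of all genes on CPM + 1. It had 0.91 CPM in DEH and 438 CPM in glucose, a glucose-to-DEH ratio of 481 (306 to 816) that rests on few DEH reads. FIT3, of the same family, made the largest loss in CPM of all genes, with 10109 CPM in DEH and 32839.7 CPM in glucose. FRE2, a ferric reductase, had 1.56 CPM in DEH and 89.0 CPM in glucose. FIT2 and FRE3 share their clusters and each had 3586 CPM in DEH, while FIT2 had 12455 CPM and FRE3 12709 CPM in glucose. The siderophore transporter SIT1 did not follow, with 1295 CPM in DEH and 1371 CPM in glucose. Of 11 genes of copper uptake and detoxification 1 was higher, 1 was lower and 9 were within 2-fold, with a median of -0.17. The 1 higher was CTR1, the high-affinity copper transporter, which had 150 CPM in DEH and 33.9 CPM in glucose, a ratio of 4.41 (4.00 to 4.88).

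FIT1 is shown with its matches to TGCACCC, the Aft1 core. The sequence is chrIV:1505017-1505266 on the minus strand of R64, and capitals mark the 2 matches, which begin 168 and 66 bases upstream of the cluster.
FIT1: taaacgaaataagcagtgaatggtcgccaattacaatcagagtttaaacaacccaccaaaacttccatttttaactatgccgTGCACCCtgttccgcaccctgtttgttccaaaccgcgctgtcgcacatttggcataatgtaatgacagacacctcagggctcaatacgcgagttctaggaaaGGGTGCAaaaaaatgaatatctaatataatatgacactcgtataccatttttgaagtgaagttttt
The core was found in 14 of 28 promoters of the iron list, in 4.90% of those of all lower genes, in 4.92% of those of higher genes outside the ribosome and in 1.79% of all promoters.

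The zinc regulon of Zap1 was lower in 10 of 23 genes and higher in 1, with a median of -0.59. ZRT1, the high-affinity zinc transporter, had 4739 CPM in DEH and 10405 CPM in glucose, and ZRT3, which releases zinc from the vacuole, had 508 CPM in DEH and 2441 CPM in glucose. VEL1, a Zap1 target of unknown function, had 4.72 CPM in DEH and 319 CPM in glucose, a glucose-to-DEH ratio of 67.7 (55.1 to 83.8). FET4, a low-affinity iron and zinc transporter that is on the iron, zinc and low-oxygen lists, had 14.3 CPM in DEH and 274 CPM in glucose. IZH4, a membrane protein tied to zinc homeostasis, was the member higher, with 213 CPM in DEH and 48.4 CPM in glucose.

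One-carbon and purine synthesis formed a further lower group. Of 19 genes 13 were at least 2-fold lower and none higher, with a median of -1.31. GCV1, the T subunit of the mitochondrial glycine cleavage complex, had 11.2 CPM in DEH and 420 CPM in glucose, a glucose-to-DEH ratio of 37.6 (32.9 to 43.2). GCV2, its P subunit, had 32.5 CPM in DEH and 467 CPM in glucose, and GCV3, its H protein, had 59.1 CPM in DEH and 339 CPM in glucose. SHM2, the cytosolic serine hydroxymethyltransferase, had 201 CPM in DEH and 1374 CPM in glucose. IMD2, an IMP dehydrogenase of GTP synthesis, had 15.4 CPM in DEH and 268 CPM in glucose, while its relatives IMD3 and IMD4 had folds of 0.24 and 0.27. GUA1, GMP synthase, had 1250 CPM in DEH and 655 CPM in glucose.

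Amino acid synthesis under Gcn4 was lower in 19 of 47 genes and higher in none, with a median of -0.67, while GCN4 itself had 2380 CPM in DEH and 1481 CPM in glucose. SNZ1, of the stationary-phase pair for pyridoxine, had 113 CPM in DEH and 819 CPM in glucose, and its partner SNO1 had 15.5 CPM in DEH and 159 CPM in glucose. HIS4, an enzyme of several steps of histidine synthesis, had 96.9 CPM in DEH and 667 CPM in glucose. Sulfate assimilation and methionine synthesis was lower in 11 of 27 and higher in none, among them the sulfate permease SUL2, with 24.7 CPM in DEH and 126 CPM in glucose, whereas its paralog SUL1 had 378 CPM in DEH and 217 CPM in glucose. The HIS4 promoter, chrIII:68468-68717 on the minus strand of R64, is shown with its match to the Gcn4 motif TGACTCA in capitals, 65 bases upstream of the cluster.
HIS4: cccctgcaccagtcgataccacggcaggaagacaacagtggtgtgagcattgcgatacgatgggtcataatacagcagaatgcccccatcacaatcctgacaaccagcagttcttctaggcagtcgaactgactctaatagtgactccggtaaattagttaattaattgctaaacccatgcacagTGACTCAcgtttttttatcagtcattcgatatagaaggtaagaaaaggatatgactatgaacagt
The motif was found in 58.1% of the promoters of the Gcn4 list, 25 of 43, and in 3.13% of all promoters.

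Of 20 genes of the pheromone response 10 were at least 2-fold lower, 9 were within 2-fold and 1 was higher, with a median of -1.07. PRM1, which acts in the fusion of mating cells, had 0.55 CPM in DEH and 71.3 CPM in glucose, a glucose-to-DEH ratio of 130 (71.8 to 259) that rests on few DEH reads. SST2, the regulator that damps the pheromone signal, had 3.02 CPM in DEH and 111 CPM in glucose, and AGA1, the anchor subunit of agglutinin, had 36.2 CPM in DEH and 602 CPM in glucose. FUS1, a membrane protein of cell fusion, had 3.56 CPM in DEH and 34.4 CPM in glucose. The receptor's G protein did not follow its targets, as GPA1 had 108 CPM in DEH and 105 CPM in glucose. The cell-type genes were mixed: 3 of 7 a-cell genes and 3 of 5 alpha-cell genes were 2-fold lower, among them SAG1, the alpha agglutinin, with 25.6 CPM in DEH and 209 CPM in glucose, while the pheromone gene MF(ALPHA)1 had 1027 CPM in DEH and 1592 CPM in glucose. PRM10, a pheromone-regulated gene, was the member higher, with 57.6 CPM in DEH and 20.4 CPM in glucose.

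PRM1 is shown for its 3 copies of the Ste12 motif in a row. The sequence is chrXIV:110580-110829 on the plus strand of R64, and capitals mark TGAAACA, here on the opposite strand, beginning 94, 83 and 72 bases upstream of the cluster.
PRM1: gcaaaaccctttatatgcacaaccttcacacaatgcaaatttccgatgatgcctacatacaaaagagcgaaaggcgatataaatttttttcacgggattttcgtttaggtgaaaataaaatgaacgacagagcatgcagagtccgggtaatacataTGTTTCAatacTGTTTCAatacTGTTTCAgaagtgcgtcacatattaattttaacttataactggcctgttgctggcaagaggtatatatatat
The motif was found in 70.0% of the promoters of the pheromone list, 14 of 20, against 7.61% of all promoters. It was found in 11.8% of those of lower genes, in 8.54% of those of higher ribosomal protein genes and in none of the 61 promoters of higher genes outside the ribosome.

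Stress and storage genes were lower more often than higher. Of 20 genes of trehalose and glycogen 10 were 2-fold lower and 1 higher, with a median of -0.99, and the higher one, GLG1, shares its clusters with the ribosomal gene RPS21A. TSL1, a subunit of the trehalose synthase complex, had 106 CPM in DEH and 339 CPM in glucose, and GSY1, a glycogen synthase, had 48.4 CPM in DEH and 162 CPM in glucose. Of 31 heat shock genes 8 were lower and 1 higher, among them HSP26, a small heat shock protein, with 130 CPM in DEH and 716 CPM in glucose. Of 31 targets of Msn2 and Msn4 10 were lower and 1 higher, and MSN4 itself had 23.1 CPM in DEH and 144 CPM in glucose. Autophagy genes were lower in 7 of 27 and higher in 1, among them ATG1, the kinase that starts autophagy, with 82.1 CPM in DEH and 195 CPM in glucose.

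The low-oxygen genes went both ways, 8 of 18 lower and 3 higher. TIR1, a mannoprotein of anaerobic cell walls, was listed at 0 in DEH and had 46.4 CPM in glucose, and TIR2 had 4.07 CPM in DEH and 68.4 CPM in glucose. ROX1, the repressor of low-oxygen genes, had 271 CPM in DEH and 53.9 CPM in glucose, and NCE103, carbonic anhydrase, had 894 CPM in DEH and 168 CPM in glucose. Among oxidoreductases 4 of 39 were higher and 5 lower: GRE2, a methylglyoxal reductase, had 393 CPM in DEH and 64.9 CPM in glucose, and its relative ARI1 had 3.17 CPM in DEH and 58.6 CPM in glucose. ADH6, an NADPH-dependent cinnamyl alcohol dehydrogenase, had 930 CPM in DEH and 217 CPM in glucose.

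Few genes of the next groups passed 2-fold. None of 36 proteasome genes passed 2-fold in either direction, with folds between -0.70 for PRE10 and 0.87 for RPN4, the activator of the others. Of 28 ergosterol genes 2 were lower and none higher, and of 22 histone and S phase genes 1 was higher, RNR2, a ribonucleotide reductase subunit, with 1478 CPM in DEH and 382 CPM in glucose. The auxotrophy markers were within 2-fold as well, LEU2 with 1066 CPM in DEH and 1104 CPM in glucose and URA3 with 34.7 CPM in DEH and 19.1 CPM in glucose.

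Other groups held more genes past 2-fold. Among 20 cyclins and cell cycle regulators 7 were lower, among them the mitotic cyclin CLB2, with 19.7 CPM in DEH and 78.2 CPM in glucose, and the 1 higher, WHI5, shares most of its tags with LPX1. Glycerol genes were higher in 4 of 10 and lower in none, among them the glycerol importer STL1, with 27.9 CPM in DEH and 4.67 CPM in glucose. Of 29 genes under nitrogen catabolite repression 9 were higher and 3 lower: PUT4, the proline permease, had 75.5 CPM in DEH and 4.07 CPM in glucose, and UGA2, of 4-aminobutyrate use, had 22.9 CPM in DEH and 147 CPM in glucose.

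**Figure D3:**
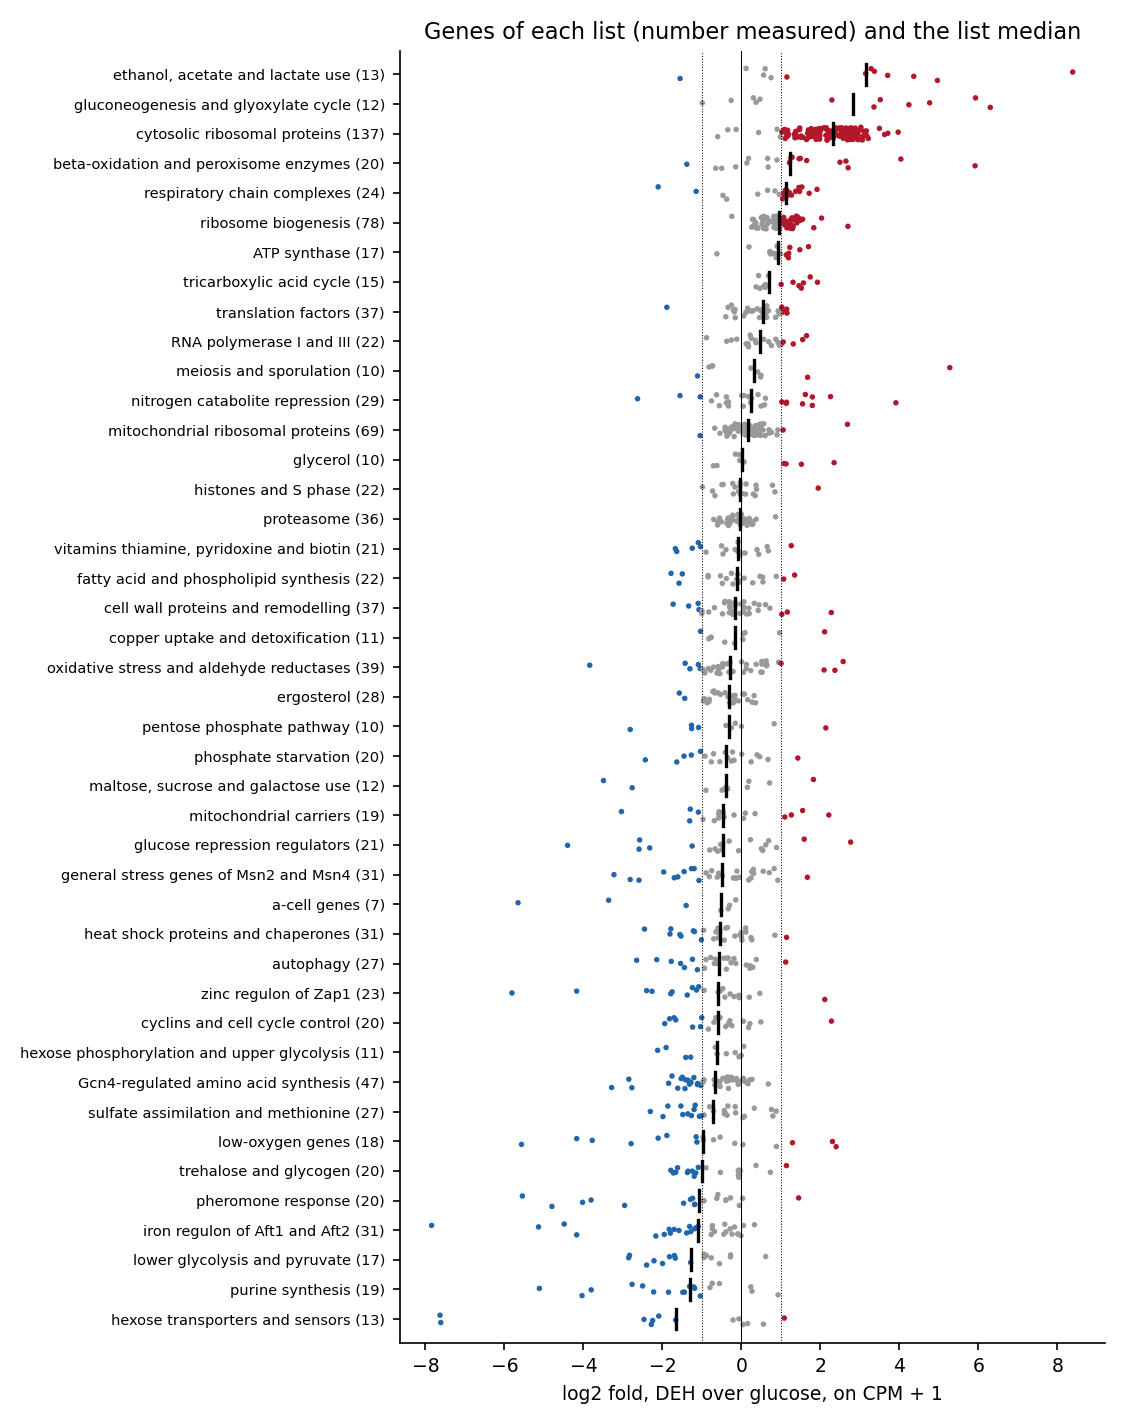
Log2 fold, DEH over glucose, of each measured gene in the gene groups of at least 7 measured genes, ordered by group median (black bars), with the number measured in brackets. Red points are at least 2-fold higher, blue points at least 2-fold lower and grey points within 2-fold. Ethanol, acetate and lactate use stands at the top with a median of 3.15, the cytosolic ribosomal proteins are a dense cloud around 2.32, and hexose transporters stand at the bottom with -1.66.

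Of the 155 higher genes 124 stand in at least 1 of the groups and 31 in none, and of the 104 lower genes 57 stand in a group and 47 in none. Genes of this remainder were picked after their values were seen. Several encode permeases: FUR4, the uracil permease, had 18.4 CPM in DEH and 1.05 CPM in glucose, FUI1, the uridine permease, had 256 CPM in DEH and 34.0 CPM in glucose, and ALP1, a basic amino acid permease, had 109 CPM in DEH and 14.4 CPM in glucose. AGX1, alanine:glyoxylate aminotransferase, which makes glycine from glyoxylate, had 310 CPM in DEH and 36.5 CPM in glucose, while the glycine cleavage genes described above were lower. Exporters were among the lower genes. TPO1, a polyamine exporter, had 9.65 CPM in DEH and 107 CPM in glucose, its relative TPO2 had 5.93 CPM in DEH and 70.4 CPM in glucose, and PDR12, which exports weak acids, had 32.2 CPM in DEH and 175 CPM in glucose. SRY1, a 3-hydroxyaspartate dehydratase, had 11.6 CPM in DEH and 140 CPM in glucose.

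Of the 20 largest folds higher, CDA1, a chitin deacetylase of spores, and SPO20, a fusion protein of sporulation, are named from clusters that lie far from their coding starts. CDA1 had 883 CPM in DEH and 36.1 CPM in glucose, nearly all of it in DEH from a cluster centred at -1678.5 bases from the coding start (negative positions lie upstream). The cluster nearest its coding start, centred at -60.0, had 14.2 CPM in DEH and 20.7 CPM in glucose. SPO20, listed at 0 in glucose and at 37.9 CPM in DEH, has its main cluster at chromosome XIII 310162 to 310529 on the plus strand, past the end of its gene at 308682. Neither value is a measure of the gene's own promoter.

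Some genes share clusters because the authors' table gives 1 cluster to several genes. Of the 71 higher genes outside the ribosome 17 took most of their tags from shared clusters, 13 of them shared with a ribosomal protein gene, and 54 did not. Of the 84 higher ribosomal protein genes 12 took most of their tags from shared clusters. DUR3, the urea permease, with 2735 CPM in DEH and 570 CPM in glucose, shares its clusters with RPS20, and FMP25, with 3465 CPM in DEH and 768 CPM in glucose, shares them with RPL10. Of the 104 lower genes 95 stood on clusters mostly their own. Among other genes named here, CAK1, COX5B, GCV3, GPA1, HOS4, RNR2, RPL41B, SIT1, SPS22, TSL1, URA3 and VHR1 also take most of their tags from clusters shared with a neighbour. OPI3, a phospholipid methyltransferase, and NPA3, an assembly factor of RNA polymerase II, share 1 set of clusters and each had 1713 CPM in DEH, while OPI3 had 5882 CPM and NPA3 5878 CPM in glucose.

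Isoenzymes of the same reaction were compared in pairs. Of 45 listed pairs both members were measured in 41, the first member gained at least 2-fold on the second in 9 and lost it in 13, and in 8 the member with more CPM was a different one in DEH. The levels of 2 genes are compared here per tag and not per length, since a CAGE tag marks the 5′ end of a transcript. ADH2 was 52.5% of the pair with ADH1 in DEH and 0.481% in glucose. IDP2 was 44.1% of its pair with the mitochondrial IDP1 in DEH and 1.42% in glucose. IDP2 itself had 502 CPM in DEH and 25.5 CPM in glucose, and IDP1 had 637 CPM in DEH and 1775 CPM in glucose. MDH2 was 71.6% of its pair with the mitochondrial MDH1 in DEH and 30.6% in glucose, although most MDH1 tags come from shared clusters. On the side of loss, TDH1 was 27.6% of its pair with TDH3 in DEH and 65.2% in glucose. AAC3, the low-oxygen ADP/ATP carrier, was 24.9% of its pair with PET9 in DEH and 58.2% in glucose, and CYC7 was 2.72% of its pair with CYC1 in DEH and 38.7% in glucose. IMD2 was 6.43% of its pair with IMD4 in DEH and 59.0% in glucose, and HXK1 was 17.0% of its pair with HXK2 in DEH and 44.5% in glucose.

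Start sites inside a gene's own set of clusters also changed. Genes were kept with 10 CPM or more in both libraries and at least 2 clusters, each assigned to that gene alone and with 10 CPM or more in either library. In these 541 genes a cluster's share of the gene changed by 30 percentage points or more in 53, which is 9.8%, against a median change of 8.89 points. The cluster with the most tags was a different one in DEH in 37 of the 53, and 13 of the 53 were also past 4-fold as genes. FAT3, involved in fatty acid uptake, took 97.9% of its tags in DEH and 3.42% in glucose from a cluster centred at -49.5 bases from its coding start, the rest coming from a cluster centred at 449.5, inside the gene. SFC1, the mitochondrial succinate and fumarate carrier, took 94.4% in DEH and 2.41% in glucose from a cluster centred at -146.5, with 499 CPM in DEH and 2.34 CPM in glucose. So most of its glucose tags, 94.7 CPM, lay 1366 bases past the coding start, and the gene's summed fold of 2.29 understates the change at its promoter. GDH3, a glutamate dehydrogenase, had a summed fold of -0.32, yet its upstream cluster had 187 CPM in DEH and 17.3 CPM in glucose and its inner cluster 28.2 CPM in DEH and 244 CPM in glucose. For SAG1 and ADH4, a zinc-regulated alcohol dehydrogenase, the cluster close to the coding start gave up share to one further upstream. At SAG1 the near one had 3.07 CPM in DEH and 164 CPM in glucose, and for ADH4 1.96 CPM in DEH and 132 CPM in glucose.

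Clusters that the authors gave to no gene were mostly lower in DEH. Of 630 such clusters with 10 CPM or more in either library, 162 (25.7%) were at least 4-fold lower and 19 (3.02%) higher, with a median fold of -1.19. Among the genes 2.15% were lower and 3.21% higher. These shares are not directly comparable, since a gene's level sums all its clusters and each of the 630 is a single cluster. The 630 had medians of only 9.785 CPM in DEH and 17.965 CPM in glucose. With 10 CPM added in place of 1, 26 clusters were 4-fold lower and 5 higher, and 57 genes were 4-fold lower. Clusters antisense to a gene had the lowest median, -1.54, with 73 of 195 lower and 3 higher. Clusters between genes had a median of -1.11, with 64 of 294 lower and 11 higher, and clusters on repeats -1.08, with 11 of 55 lower and none higher. Clusters on the same strand inside a gene had a median of -0.20, with 14 of 86 lower and 5 higher. The 162 lower clusters had a median of 1.51 CPM in DEH and 18.9 CPM in glucose, and 46 of them were listed at 0 in DEH. All clusters without a gene together took 4.13% of CPM in DEH and 4.86% in glucose. Levels in mannitol are set beside these, but the mannitol and DEH folds divide by the same glucose library and are not independent. In mannitol the 630 clusters had a median fold of -1.64 over the same glucose library, and 429 were at least 2-fold lower, against 345 in DEH. Of the 162 lower clusters 146 were at least 2-fold lower in mannitol. The 162 were chosen by their fold over that glucose library, so this count is no separate check. In BY_DEH+ 143 of the 162 were at least 2-fold lower in DEH, and the 630 had a median of -0.69.

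**Figure D4:**
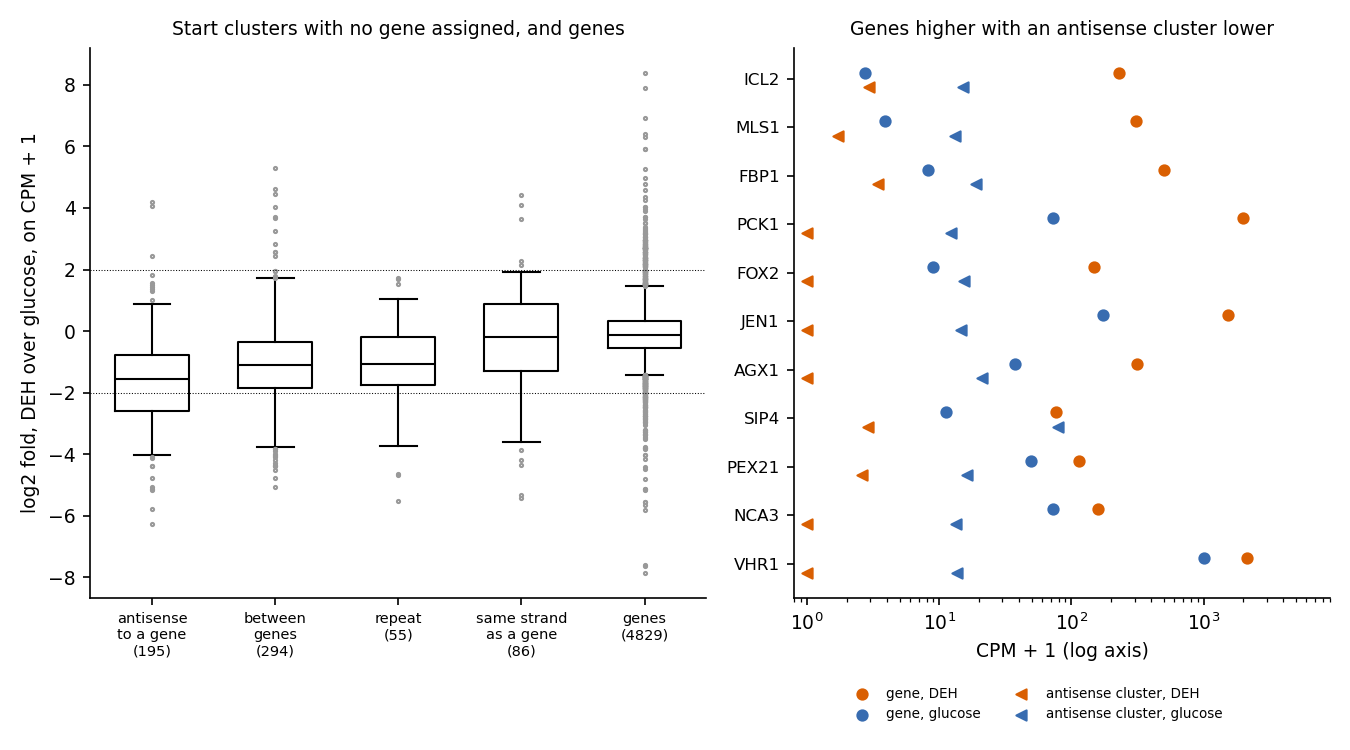
Left, log2 fold, DEH over glucose, of start clusters with no gene assigned by their place, beside the 4829 genes. Boxes span the interquartile range with the median as a line, whiskers run from the 5th to the 95th percentile, dotted lines mark 4-fold and numbers of clusters or genes stand in brackets. Right, CPM + 1 on a log axis for the 11 genes at least 2-fold higher that carry an antisense cluster at least 4-fold lower, with genes as circles and antisense clusters as triangles, DEH in orange and glucose in blue; for PEX21 the antisense cluster with 1.61 CPM in DEH and 15.1 CPM in glucose is drawn. Antisense clusters have the lowest median, -1.54, and in SIP4 the antisense cluster at 78.7 CPM in glucose lies above the gene at 10.2 CPM.

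Antisense clusters that were lower lay opposite several of the genes with the highest folds. Of the antisense clusters lying across from a measured gene, 53 over 51 genes were 4-fold lower, and 11 of these genes were at least 2-fold higher and 9 at least 2-fold lower. The median fold of the 51 genes was 0.04. The 75 antisense clusters past 4-fold in neither direction lay opposite 74 genes, of which 5 were higher and 14 lower, with a median of -0.29. The difference between these groups of genes was not tested. The 11 genes were taken after their values were seen. The antisense cluster of PCK1, at chromosome XI 631941 to 632018 on the minus strand, was listed at 0 in DEH and had 11.2 CPM in glucose. That of MLS1, at chromosome XIV 407728 to 407827 on the minus strand, had 0.70 CPM in DEH and 12.2 CPM in glucose. FBP1 had one at the end of the gene, chromosome XII 873721 to 873802 on the plus strand, with 2.46 CPM in DEH and 18.1 CPM in glucose. All 3 are gluconeogenic or glyoxylate genes whose own levels ran the other way. The one opposite SIP4, chromosome X 268029 to 268148 on the minus strand, had 1.91 CPM in DEH and 78.7 CPM in glucose, so that in glucose it outnumbered the gene. Opposite JEN1 the cluster at chromosome XI 24082 to 24192 on the minus strand, at the end of the gene, was listed at 0 in DEH and had 13.6 CPM in glucose. The other members were AGX1, FOX2, ICL2, NCA3, PEX21 and VHR1, and their antisense clusters had between 0 and 1.96 CPM in DEH and between 12.35 and 39.1 CPM in glucose.

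ICL2 showed both kinds of change at 1 locus, chromosome XVI 567269 to 568996 on the minus strand. Its promoter cluster at 568985 to 569154 held the 230 CPM in DEH. Inside the gene on the same strand, a cluster without a gene at 567884 to 567991 was listed at 0 in DEH and had 39.3 CPM in glucose, and the antisense cluster at 567260 to 567331 had 1.96 CPM in DEH and 14.1 CPM in glucose. The lowest folds of all antisense clusters were opposite HOS4, chromosome IX 154762 to 154976, listed at 0 in DEH and at 76.1 CPM in glucose, and opposite CAK1, chromosome VI 78075 to 78129, listed at 0 in DEH and at 54.1 CPM in glucose. These genes themselves were within 2-fold, with folds of 0.14 for HOS4 and -0.63 for CAK1. On the higher side the largest fold was a cluster between genes at chromosome IV 544757 to 544886 on the plus strand, which had 38.1 CPM in DEH and none listed in glucose.

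The share of lower genes was larger near chromosome ends. Within 25 kb of an end 15 of 140 genes (10.7%) were at least 4-fold lower and 5 (3.57%) higher, with a median of -0.39. Further in, 89 of 4689 (1.90%) were lower and 150 (3.20%) higher, with a median of -0.11. Genes near the ends include FRE2, VEL1 and members of repeated families, whose reads may be split between copies, and the difference was not tested.

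Most calls had the same direction in BY_DEH+, the other strain, whose 2 libraries enter none of the BY_DEH++ folds. Among the same 4829 genes 502 (10.4%) were at least 2-fold higher and 475 (9.84%) lower in DEH there. Of the 155 genes 4-fold higher in BY_DEH++, 136 (87.7%) were at least 2-fold higher in BY_DEH+, 52 of them 4-fold, and 2 were 2-fold lower. Of the 104 lower genes 83 (79.8%) were at least 2-fold lower, 53 of them 4-fold, and 1 was 2-fold higher. The folds of all genes had a Pearson correlation of 0.71 and a Spearman correlation of 0.67 across genes, which is a description, since genes are not independent.

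The groups differed in how their size compared between the strains. The 71 higher genes outside the ribosome had a median fold of 2.70 in BY_DEH++ and 2.56 in BY_DEH+. The 84 ribosomal genes had medians of 2.69 in BY_DEH++ and 1.44 in BY_DEH+, and 7 of them were 4-fold higher there. The 71 and the 84 were chosen by their folds in BY_DEH++, which can raise their medians there but not in BY_DEH+. All 137 ribosomal protein genes had medians of 2.32 in BY_DEH++ and 1.27 in BY_DEH+. Beta-oxidation genes had medians of 1.24 in BY_DEH++ and 2.77 in BY_DEH+, and the respiratory chain 1.12 in BY_DEH++ and 0.64 in BY_DEH+. Autophagy genes had medians of opposite sign, -0.57 in BY_DEH++ and 0.59 in BY_DEH+, and so had the targets of Msn2 and Msn4, -0.48 in BY_DEH++ and 0.47 in BY_DEH+. Cell wall genes had -0.16 in BY_DEH++ and -1.23 in BY_DEH+, where 20 of 37 were 2-fold lower. These differences were not tested, and the DEH cultures also differed in starting density and days of growth.

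Some single genes differed most. ASC1 had a fold of 3.32 in BY_DEH++ and 0.77 in BY_DEH+, and AAH1, adenine deaminase, 2.34 in BY_DEH++ and 0.10 in BY_DEH+. VEL1 had a fold of -5.81 in BY_DEH++ and -1.38 in BY_DEH+, where its glucose level was 21.5 CPM. ENA2, of the sodium pump cluster of near-identical genes, had 35.2 CPM in BY_DEH++ in glucose and was listed at 0 in the other 4 libraries. FIT2 and FRE3 went further in BY_DEH+, with folds of -1.80 and -1.83 in BY_DEH++ and -5.74 and -5.65 in BY_DEH+.

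**Figure D5:**
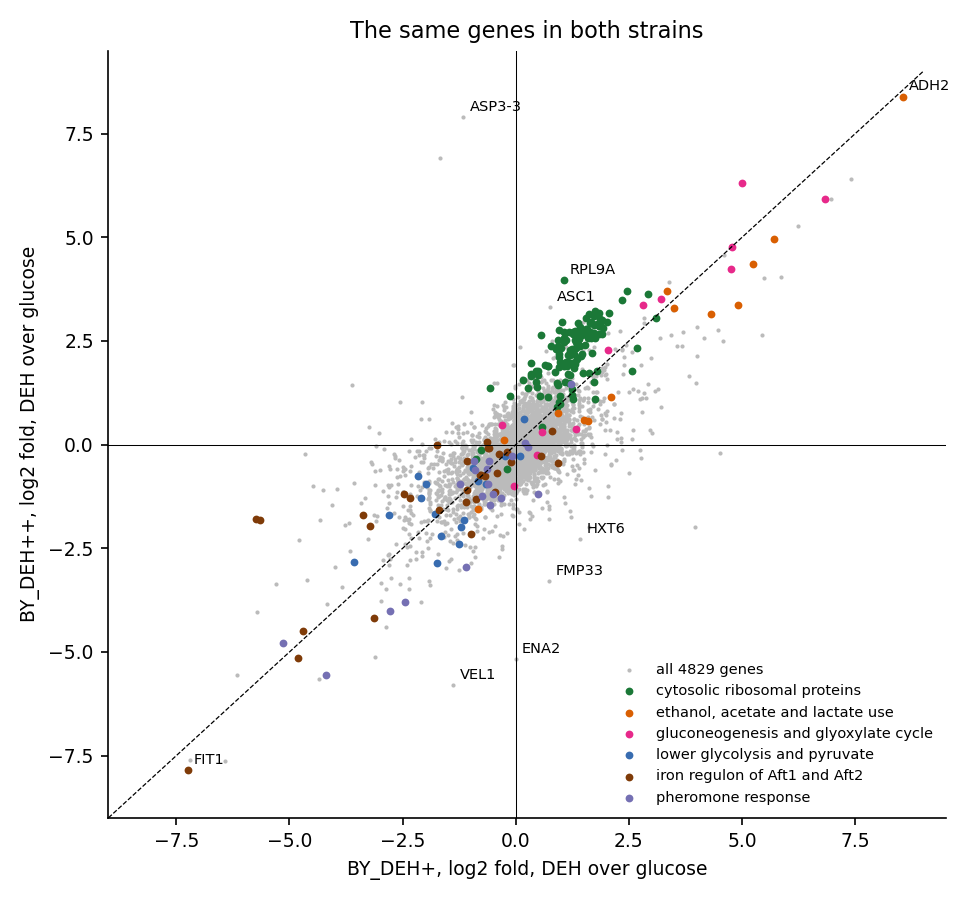
Log2 fold, DEH over glucose, of each of the 4829 genes in BY_DEH++ (vertical axis) against BY_DEH+ (horizontal axis), with 6 gene groups in colour; the broken line marks equal folds. The 137 ribosomal protein genes had a median of 2.32 in BY_DEH++ and 1.27 in BY_DEH+. ADH2 and FIT1 lie at opposite ends near the line, and ASP3-3, ENA2 and VEL1 stand apart from it.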

How the data were processed

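CAGE libraries from total RNA (cap trapping with a DNAFORM kit, sequenced on a NextSeq500, per the labels' protocols) gave 5 groups of 1 library. In the deposited table each consensus cluster has 1 value per library, a signal that the authors named CPM. The design assumed CPM, but the unit was recorded as signal, since a cluster of several genes is repeated in the table and its column sums exceed what CPM permits. Per the submitters' processing notes, BWA, HISAT2 and the build mm9 were named, with neither version nor role. That build is of the mouse. The sequence names of the clusters are those of yeast R64, whose genome gave the promoter sequences. The clustering tool, filters and gene assignment are not given in the sources used here.

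The table's 29960 lines held 27176 clusters, each used 1 time per gene. Of these 2713 were assigned to several genes and counted in full for each, and 6821 to no gene. CPM was summed per gene and genes with 10 CPM or more in either library kept. Folds are log2 ratios of CPM + 1, called at 4-fold, or 2-fold in lists. Of 5009 genes 5004 matched the reference table. With no replicate, no test across genes was run. Reads were recovered as CPM divided by the CPM of 1 read. This was checked on low values only, which were all whole within 0.15 reads. The reads gave exact binomial (Clopper-Pearson) 95% intervals, which cover counting error only, as no molecular identifiers are stated.

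The members and the 48 gene lists were chosen with earlier results of these data known. Named genes were the 20 largest folds each way (without ribosomal genes and genes wholly on shared clusters), up to 6 of each list plus up to 3 against its median, 5 ribosomal genes at each end, the 10 largest pair differences, 12 start-site changes, 5 clusters without a gene each way, the 10 largest gains and losses in CPM and the 10 genes each way that differed most from BY_DEH+. Some genes that the rule or the lists hold are not reported here. Other genes are named as examples of their lists or are said to have been chosen after their values were seen. Promoter motifs were searched on both strands in 300 bases, 280 before and 20 after the upstream edge of each main cluster. Alternatives were other pseudocounts, minimum levels, scalings, assignments of clusters and limits. The tools were Python 3.11.15, pandas 2.3.3, numpy 2.4.6, scipy 1.17.1 and matplotlib 3.10.9, and the steps were tested on simulated data.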

Additional observations from a re-analysis of the deposited data

Results flagged for a closer look

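Among the genes 4-fold changed in BY_DEH++, 3 were past 2-fold in the opposite direction in BY_DEH+. The difference between the strains was not tested, as each strain and medium has 1 library. ASP3-3, an asparaginase of a repeated block of genes, had a fold of 7.90 in BY_DEH++ and -1.16 in BY_DEH+, with 633 CPM in BY_DEH++ in DEH, 1.66 CPM in BY_DEH++ in glucose, 4.11 CPM in BY_DEH+ in DEH and 10.4 CPM in BY_DEH+ in glucose. YLR157W-B, a transposon gene that shares its clusters with ASP3-3, had a fold of 6.92 in BY_DEH++ and -1.68 in BY_DEH+. Both sit among near-identical copies on chromosome XII, so the copy the tags came from is uncertain. HXT6 had a fold of -2.28 in BY_DEH++ and 1.42 in BY_DEH+, with 47.1 CPM in BY_DEH++ in DEH, 232 CPM in BY_DEH++ in glucose, 61.8 CPM in BY_DEH+ in DEH and 22.4 CPM in BY_DEH+ in glucose, and it is nearly identical to HXT7.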

How the results depend on the processing

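With no replicates, leaving out a library was not possible, and the culture's medium, length and density cannot be told apart. The main result had 155 higher and 104 lower genes. Of the 155, 84 are ribosomal protein genes and 71 are not. Leaving out the ribosomal genes and rescaling gave 70 higher, 58 of them among the 71, and lists with a median 2-fold lower numbered 3 in place of 6. Clusters shared with a ribosomal gene were left out too, and 13 of the 71 took most of their tags from such clusters. A pseudocount of 10 CPM gave 57 lower genes, all among the 104. The 2-fold limit gave 421 higher and 511 lower genes. The share of calls that were higher was 59.8%, 71.6% with a pseudocount of 10 CPM and 44.9% without ribosomal genes. Median-of-ratios scaling moved the median of all genes from -0.11 to 0.00 and kept all 155 higher and 96 lower genes. Assigning clusters to the nearest coding start turned the fold of CDA1 to -0.52, STF1 to -0.22, GLG1 to -1.44, SRX1 to -1.07 and NPA3 to 0.34, and no other of the 324 genes followed that was past 2-fold changed sign. Of those within 2-fold 5 did under some alternative, and folds near 0 can turn with the scaling alone. Start-site changes numbered 118 at 20 and 21 at 50 percentage points. Clusters without a gene numbered 5 higher and 26 lower with a pseudocount of 10 CPM, and 56 higher and 345 lower at 2-fold. List medians moved by less than 1.5-fold in 472 of the values under an alternative and by more in 7. Those of 9 lists, all between -0.17 and 0.01, changed sign under some alternative, 6 of them under median-of-ratios scaling. No paired analysis was possible because each group has 1 library. Depth limits most the lower clusters and genes, many of them under 10 CPM in DEH.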
